A study of Mus musculus with 8 samples.

Results

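The regions described here are stretches of 3′-UTR that lay beyond the stop codon and held an m6A peak in at least 3 of 4 peak lists, and there were 344 of them, in 324 genes, among 12350 merged regions. Same-strand peaks of the 4 lists were joined into 1 region where they overlapped by 1 bp or more, and each merged region was given to the coding gene with the largest exon overlap. A region was kept when its midpoint lay in the 3′-UTR of the longest coding transcript and when it did not touch that transcript's stop codon. The members were thus chosen by peak presence in the lists, and 215 of them had a peak in 3 lists and 129 in all 4. Their recurrence is a property of the rule and is given as a description.

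The study measured m6A by MeRIP-Seq, in which an antibody enriches RNA fragments that carry the mark and the enriched library is compared with an input library of the same RNA. The cells were bone marrow-derived macrophages (BMDMs) of C57BL/6 mice aged 8 weeks, grown for 7 days with 40 ng/mL M-CSF, the growth factor that drives marrow precursors to macrophages. The wild-type (WT) mice were Mettl3fl/fl Lyz2+/+ and the knockout (KO) mice were Mettl3fl/fl Lyz2cre/+, so the floxed Mettl3 alleles were shared by both groups and the Cre allele was carried by the KO mice only. The groups held 2 mice each, and each mouse gave an IP and an input library, 8 libraries in all, and 1 peak list. Cre driven by Lyz2 acts in myeloid cells, which include granulocytes as well as macrophages, and deletion need not reach every cell. Read counts are not part of these lists, which leaves the depth behind a peak unknown, and the lists give no level of the Mettl3 RNA. Where 2 values are printed for a genotype, that of replicate 1 comes before that of replicate 2.

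In mammalian mRNA, m6A is written by a nuclear complex with METTL3 as its catalytic subunit, at adenosines in the DRACH context, of which GGAC is the most frequent core. The mark is best known for its concentration around stop codons, and it continues into the 3′-UTR, the part of the transcript that also holds microRNA sites, AU-rich elements and the polyadenylation signal. Reader proteins of the YTH family bind m6A in 3′-UTRs, and some of them bring the transcript to the decay machinery.

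The sequences below show the GGAC nearest to the middle of the stretch shared by the lists in members on which the values turn. Each is 28 bases of the mm10 genome, read 5′ to 3′ on the strand of the gene, with GGAC in capitals. The set is made of 5 members at the upper limit of the score in every list, 3 members far from the stop codon, 3 members in a transcription factor or in macrophage surface receptors, and 2 members whose scores were apart between the genotypes.
Ddx6, chr9:44637078-44637105, plus strand: gggccggaaggtGGACtagtgatggcag
Frmd4a, chr2:4611789-4611816, plus strand: acaaacccaacgGGACagtgaagatgaa
Otulinl, chr15:27656643-27656670, minus strand: gaaacttaatatGGACaaaaattggaag
Peak1, chr9:56203372-56203399, minus strand: gatcaccataaaGGACagcagctgatga
Treml2, chr17:48310081-48310108, plus strand: ggggtcagccatGGACcaaagcaatgcc
Aak1, chr6:86997652-86997679, plus strand: ttagactagtgtGGACgcttgtatgctc
Fnbp1, chr2:31026893-31026920, minus strand: tccctgtccccaGGACccactgcctgtc
Braf, chr6:39604564-39604591, minus strand: atggaggaaaatGGACcaaaataaggca
Foxo3, chr10:42186054-42186081, minus strand: acctgccagcgtGGACagcacccatcag
Cd86, chr16:36604421-36604448, minus strand: atgtttatggaaGGACtgatctgcccag
Cd84, chr1:171854520-171854547, plus strand: acaaaaaatttaGGACactaagaaaaga
Mid1, chrX:169990263-169990290, plus strand: cgacccctgggaGGACtcccggagcgga
Pigk, chr3:152787156-152787183, plus strand: tgctgtccctgaGGACagccccataaac

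Of the 59 members named by rule and looked up in the genome, 51 had a GGAC that could be shown in this way, 3 of them (Itga6, Antxr1 and the member of Foxo3 at 3348 nt) in the region as a whole, since their widest peaks share no base. The base after GGAC was A in 20 of the 51, T in 16, C in 12 and G in 3. The other 8 members had none there, among them Hist1h2bc, Cx3cr1, Foxp1, Ago4 and Slc38a9. A GGAC in a window is a description of the sequence and not a mapped methylation site.

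The 4 lists held between 6159 and 6684 peaks, of which 97.0% to 97.3% overlapped an exon of a coding gene on the same strand. Between 42.2% and 50.8% of the peaks had an edge at an annotated exon edge, so peak edges follow the annotation in part. The score of a peak has an upper limit near 3100, which 10.3% and 13.5% of the peaks reached in the WT lists and 16.2% and 19.5% in the KO lists. Scores are therefore given below as percentiles, the percent of a list's peaks with the same or a lower score. Peaks on cell type markers were few. A peak was found on 3 of 10 macrophage markers in at least 1 list, on 1 of 7 neutrophil, 2 of 6 T cell, 1 of 5 B cell, 3 of 5 fibroblast and 0 of 4 erythroid markers, and a marker without a peak may still be expressed. Mettl3 itself had no peak in any list.

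The members lay in the body of long 3′-UTRs. The distance from the stop codon to the midpoint, counted along the spliced transcript, had a median of 1114 nt, quartiles of 689 and 2047 nt, and a range of 156 to 10615 nt. Relative to the 3′-UTR, the midpoint lay at a median of 48.8% of its length, with quartiles of 28.5% and 68.9%. The 3′-UTRs of the 324 genes had a median length of 2913 nt, against 1919 nt for the genes of recurrent stop codon regions, 1605 nt for those of recurrent internal coding regions and 1523 nt for the genes with at least 1 peak. A long 3′-UTR offers more sequence beyond the stop codon, so this difference is in part set by the rule. The midpoint was in the last exon for 342 of 344 members, and 318 lay wholly in 1 exon.

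**Figure D1:**
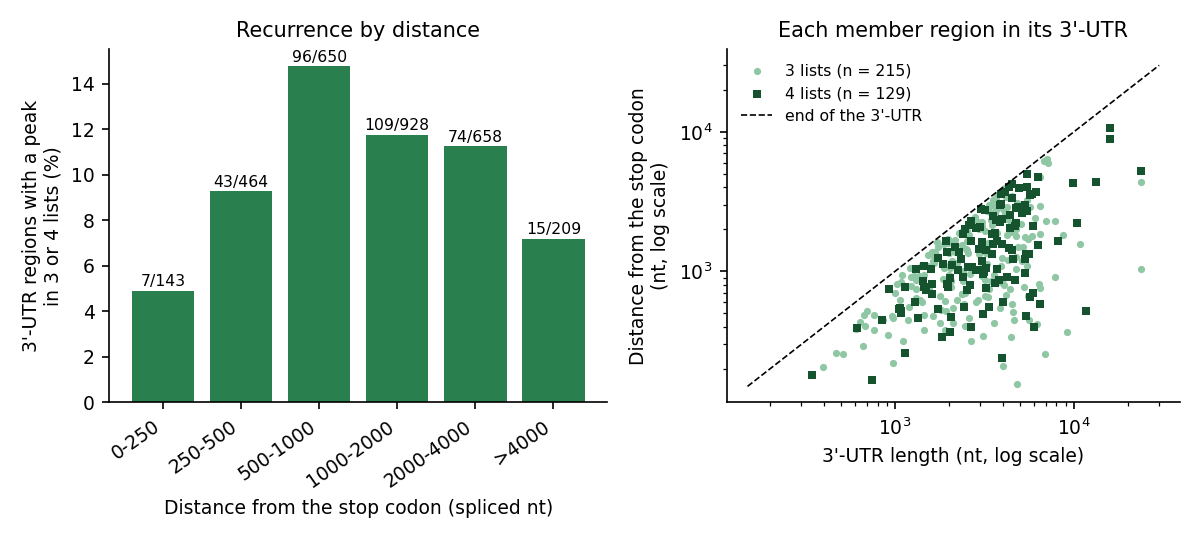
Left, percent of all 3′-UTR regions with a peak in 3 or 4 lists, by spliced distance of the region midpoint from the stop codon in nt, with the counts above the bars. Right, distance from the stop codon against 3′-UTR length, both in nt on log scales, with 1 point per member and a dashed line at the end of the 3′-UTR. The share is 4.9% in the nearest bin and 14.8% between 500 and 1000 nt, and the members are spread between the stop codon and the dashed line.

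Most 3′-UTR regions did not recur. Of 3052 regions with a midpoint in a 3′-UTR and no contact with the stop codon, 2171 (71.1%) had a peak in 1 list only, 537 in 2, 215 in 3 and 129 in 4. The share in 3 or 4 lists was 11.3%, against 44.7% of 3875 stop codon regions and 36.8% of 2808 internal coding regions. Within the 3′-UTR this share was 4.9% (7 of 143) up to 250 nt from the stop codon, 9.27% (43 of 464) between 250 and 500 nt, 14.8% (96 of 650) between 500 and 1000 nt, 11.7% (109 of 928) between 1000 and 2000 nt, 11.2% (74 of 658) between 2000 and 4000 nt and 7.18% (15 of 209) beyond. A region that lies near the stop codon can avoid it only if it is narrow, so the lowest share, at the shortest distance, comes with a limit on width.

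The limit of the rule at the stop codon was sharp. Agfg2 and Arhgap17, the latter a GTPase-activating protein, were just inside it with 1 base between the stop codon and the region, and Sept8, a septin, followed with 2. Dnajc11, a mitochondrial J-domain protein, was just outside it with an overlap of 2 bases, and Ccdc106 and the deubiquitinase Usp7 followed with 3. The percentiles of Arhgap17 were 84.8 and 79.3 in WT and 74.2 and 99.3 in KO, and those of Dnajc11 were 77.9 and 24.0 in WT and 27.0 and 99.3 in KO. Regions on the 2 sides of the limit thus differed in position by a few bases.

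For 241 of the 324 genes (74.4%) the recurrent 3′-UTR region was not accompanied by a recurrent region at the stop codon or inside the coding sequence. A recurrent stop codon region was present in 60 of the genes (18.5%) and a recurrent internal coding region in 37 (11.4%). Over all 7051 genes with a peak, 1732 had a recurrent stop codon region. A recurrent internal coding region was present in 853, counted where a stop codon is annotated. These shares are therefore not read as a property of the members. A 3′-UTR peak joined to a stop codon peak is no member, so the separation is in part set by the rule. Genes with 1 member made up 308 of the 324, 13 genes had 2, Zbtb20 and Peak1 had 3, and Gm38394 had 4. The 4 regions of Gm38394 also overlap exons of Zc3h11a, a zinc finger protein of mRNA export, so the assignment to 1 gene is uncertain there, as it is for 13 members in all that overlap exons of more than 1 coding gene.

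Annotated isoforms divide the members further. A coding transcript with the same stop codon but an earlier 3′ end existed for 98 members (28.5%), which lay beyond that end and so belong only to the longer isoform. These include both members of Foxo3 and of Aak1, all 3 of Zbtb20, and those of Mitf, Foxp1 and Elk3. Some 32 members (9.3%), 4 of them also among the 98, overlap the stop codon of a different coding transcript of the gene. Counted separately over all 344 members, 9 have their midpoint in the coding sequence of another coding transcript of the gene, Asxl2 among them. Not all of these 9 are among the 32, as Armt1 and Magi3 show. For the members of both counts the name 3′-UTR holds for the longest transcript only.

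The member farthest from its stop codon was in Aak1, which encodes a kinase of clathrin-mediated endocytosis and has a 3′-UTR of 15925 nt. It lay at 10615 nt and had score percentiles of 65.2 and 99.1 in WT and 99.4 and 99.3 in KO. A separate member of Aak1 at 8899 nt had 38.2 and 56.2 in WT and 77.0 and 40.2 in KO. Next came Slc38a9, the lysosomal arginine sensor of the mTORC1 pathway, at 6423 nt, Fnbp1, a membrane-curving protein, at 6228 nt, and Braf, the kinase above MEK and ERK, at 5941 nt. All of these last 3 lacked a peak in KO-1. Of all 344 members, 54 lacked KO-1 and 86 lacked WT-2. Among the 15 members beyond 4000 nt, 3 lacked a KO list and 2 lacked a WT list, so these absences are not read as a property of distant members. The percentiles of Braf were 22.6 and 25.8 in WT and 58.0 in KO-2, so its region was of low to middling score where it was found. Zbtb20, a transcriptional repressor with a 3′-UTR of 23858 nt, held its 3 members at 1037, 4405 and 5201 nt.

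GGAC was more frequent in the middle of the members than in 3′-UTR sequence without peaks. Only the transcript strand was searched, and the window was the central 200 nt of each list's own peak. GGAC was present in 59.8% (180 of 301) and 59.9% (154 of 257) of the members' windows in the WT lists and in 59.0% (171 of 290) and 60.3% (188 of 312) in the KO lists. The groups overlapped. Of 2606 tiles of 200 nt from the same genes' 3′-UTRs that touched no peak, 38.9% held it, and so did 38.9% of 44666 such tiles from all genes with a peak and 41.7% of 143007 tiles from all coding genes. GGACT, the same core followed by T, was present in a mean of 29.7% of the members' windows over the 4 lists and in 15.5% of the tiles of their genes. The windows were also richer in G and C, at 45.2% to 45.9% by list against 43.4% in those tiles, and the part of base composition in the difference was not tested. DRACH as a whole was in 98.7% of the windows and 97.3% of the tiles and so separates little at this length.

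**Figure D2:**
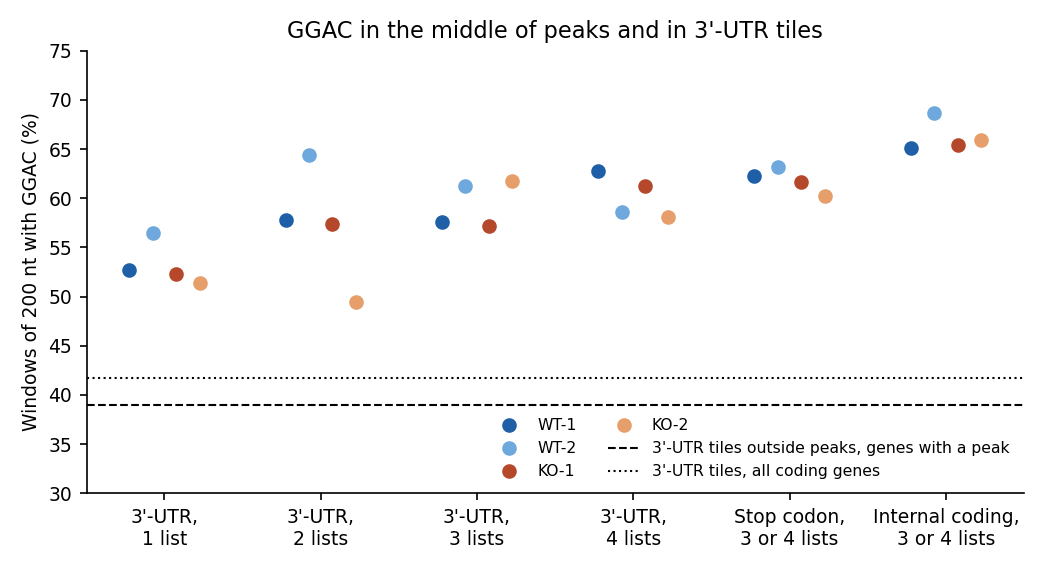
Percent of 200-nt windows around peak midpoints that hold GGAC, 1 point per list, for 3′-UTR regions by the number of lists with a peak and for recurrent stop codon and internal coding regions. The axis starts at 30%, and the lines mark 3′-UTR tiles. Every point is above the 38.9% of tiles outside peaks and the 41.7% of all tiles.

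The share was higher in regions of all 4 lists than in those of 1 list, in each list. It was 62.8% and 58.6% in WT and 61.2% and 58.1% in KO for regions of 4 lists, and 52.7% and 56.5% in WT and 52.3% and 51.4% in KO for regions of 1 list. Regions in 2 lists held GGAC in 49.4% to 64.4% of windows by list, and those in 3 lists in 57.1% to 61.7%. The 95% Wilson intervals of 1-list and 4-list regions, which cover counting error only, overlap in each list, for instance 47.2% to 55.6% and 49.5% to 66.3% in KO-2, and the difference was not tested. With distance, the share was 60.5% to 67.4% within 500 nt of the stop codon and 50.6% to 59.0% beyond 2000 nt.

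Set beside the other kinds, the percent of windows with GGAC in the members minus that in recurrent stop codon regions was -2.08 percentage points on average (exact sign-flip test over the 4 lists, two-sided p = 0.25), with -2.48 and -3.20 in WT and -2.67 and 0.03 in KO. Against internal coding regions the difference was -6.55 points (exact sign-flip test, p = 0.13, the smallest that 4 lists allow), with -5.28 and -8.74 in WT and -6.49 and -5.69 in KO. It was -1.89 points without WT-2 and -2.52 points with the 50% of peaks of highest score (exact sign-flip test, p = 0.375), and without WT-2 the contrast with stop codon regions turned to 1.99 points. Both signs turned for GGACT, which the members held more often, by 1.73 points than stop codon regions and by 3.84 points than internal coding regions. The 4 lists share regions and genes, so they are not independent of each other.

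Other 3′-UTR elements followed another order. ATTTA, the core of AU-rich elements, was present in 19.6% and 19.5% of the members' windows in WT and 19.0% and 21.8% in KO, below the 26.0% of tiles from the same genes and above the means of 17.7% in stop codon and 9.71% in internal coding regions. AATAAA, the polyadenylation signal, was in 9.63% and 8.95% in WT and 11.0% and 12.8% in KO, against 12.5% of the tiles. Both KO values were above both WT values (exact permutation test, p = 0.33, unadjusted, the smallest that 2 lists a group allow). Among the measures of the members alone that were given this test, AATAAA was the only one without overlap of the groups. TGTANATA, the site of Pumilio proteins, was in 2.72% to 3.45%, against 3.57% of the tiles. These 3 motifs were in more of the members' windows than of either other kind in each of the 4 lists (exact sign-flip test, p = 0.13 each, adjusted p = 0.143 over 24 comparisons between kinds), and the G and C content of the members minus that of stop codon regions was -2.11 points on average.

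**Figure D3:**
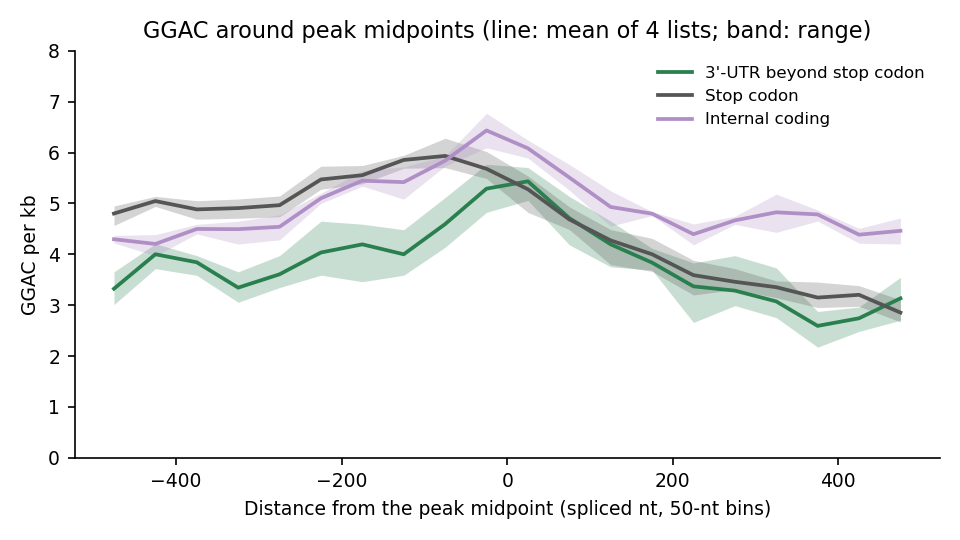
GGAC per kb of spliced sequence in 50-nt bins by distance from the peak midpoint in nt, for members, recurrent stop codon regions and recurrent internal coding regions. The line is the mean of the 4 lists and the band their range. For the members the level is highest around 0 and lower on both sides.

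Around the peak midpoint of the members, GGAC occurred 5.28 and 4.94 times per kb within 50 nt in the WT lists and 5.49 and 5.74 times in the KO lists. Between 300 and 500 nt away it occurred 3.27 and 3.41 times in WT and 3.26 and 3.22 times in KO. The central value was the higher one in each list, and the KO values lay above the WT values in the centre and below them farther out, by little in both places. For stop codon regions the values were 5.18 to 5.66 in the centre and 3.96 to 4.11 at 300 to 500 nt, and for internal coding regions 5.99 to 6.51 and 4.46 to 4.55. The mean number of GGAC per window was 0.98 to 1.0 in the members, against 0.52 in tiles outside peaks, and 25.5% to 28.0% of windows held at least 2, against 10.0%.

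The question put by the genotypes is whether these regions are lost or weaker in cells of the KO mice, in which the paper reports reduced and not absent Mettl3 mRNA. Among the members, 87.5% (301 of 344) and 75% (258) had a peak in the WT lists and 84.3% (290) and 90.7% (312) in the KO lists. WT-2 was the lowest and KO-2 the highest, and WT-1 lay between the KO lists, so the groups overlapped. WT had a mean of 81.3% ± 8.84 (SD, n = 2) and KO one of 87.5% ± 4.52 (SD, n = 2), a difference of 6.25 percentage points (exact permutation test over the 6 labellings of the lists, two-sided p = 0.667). With 2 lists a group this test cannot go below 0.33. By the rule each member lacks at most 1 list, which bounds these percentages. A region lost from both KO lists could not be a member. The test therefore cannot decide whether such regions are lost in the KO mice.

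**Figure D4:**
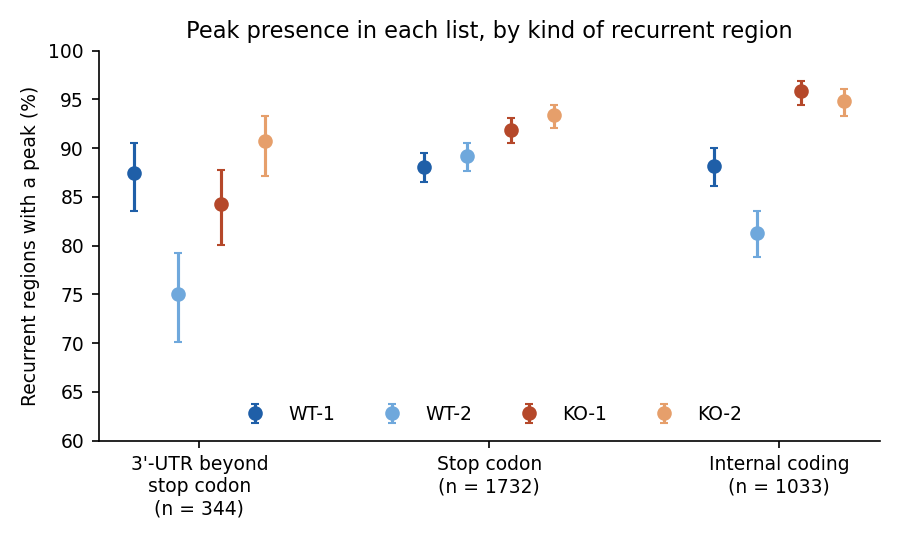
Percent of recurrent regions with a peak in each list, for the members and the 2 other kinds, with 95% Wilson intervals that cover counting error only. The axis starts at 60%. WT and KO points interleave for the members, while both KO points are above both WT points for stop codon and internal coding regions.

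Of the 215 members in 3 lists, 129 (60%) lacked a WT list and 86 lacked a KO list, while over all 1572 regions in 3 lists the share that lacked a WT list was 67.7%. The missing list was WT-2 for 86 members, KO-1 for 54, WT-1 for 43 and KO-2 for 32. WT-2 thus accounted for most of the WT count, and the order followed neither the genotype nor the number of peaks in the lists. In 47.4% of these 215 cases the gene had another peak in the list that lacked the member, and in 113 it had none. Fewer transcripts and less methylation per transcript cannot be told apart where a peak is missing, since no input level is given.

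In stop codon regions the corresponding values were 88.1% and 89.2% in WT and 91.9% and 93.4% in KO, and in internal coding regions 88.2% and 81.3% in WT and 95.8% and 94.9% in KO. The KO minus WT difference of the members exceeded that of stop codon regions by 2.27 points (exact permutation test, p = 1) and differed from that of internal coding regions by -4.35 points (exact permutation test, p = 0.667). With 2 or 3 of the other 3 lists required, the latter was -14.1 points without KO-1 and -16.1 points without KO-2. The members' percentage minus that of stop codon regions was -0.61 and -14.2 points in the WT lists and -7.61 and -2.66 points in the KO lists. The low share in WT-2 therefore stood out among the members more than at the stop codon. It was not particular to the members, since internal coding regions also had their lowest share in WT-2. The members' percentage minus that of internal coding regions was -0.69 and -6.32 points in the WT lists and -11.5 and -4.17 points in the KO lists. Presence in these same lists chose the regions of every kind. The tests of these contrasts are thus bounded by the rule and cannot decide whether regions are lost.

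The members were of middling score. The median percentile of the 129 members in all lists was 62.0 and 59.7 in the WT lists and 60.1 and 59.9 in the KO lists, with the KO values inside the WT range. KO minus WT was -0.86 (exact permutation test, p = 1). Stop codon regions in all lists had medians of 71.6 and 75 in WT and 74.2 and 75.3 in KO, and the members minus these regions gave -15.4 to -9.57 over the 4 lists (exact sign-flip test, p = 0.13, adjusted p = 0.143). Internal coding regions had 80.7 and 73.5 in WT and 99.4 and 99.3 in KO, where the KO medians lie at the score limit, so that their distance from the members in KO depends on that limit. Members in 3 lists had lower medians than members in 4, at 49.9 and 44.6 in WT and 38.7 and 39.2 in KO.

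**Figure D5:**
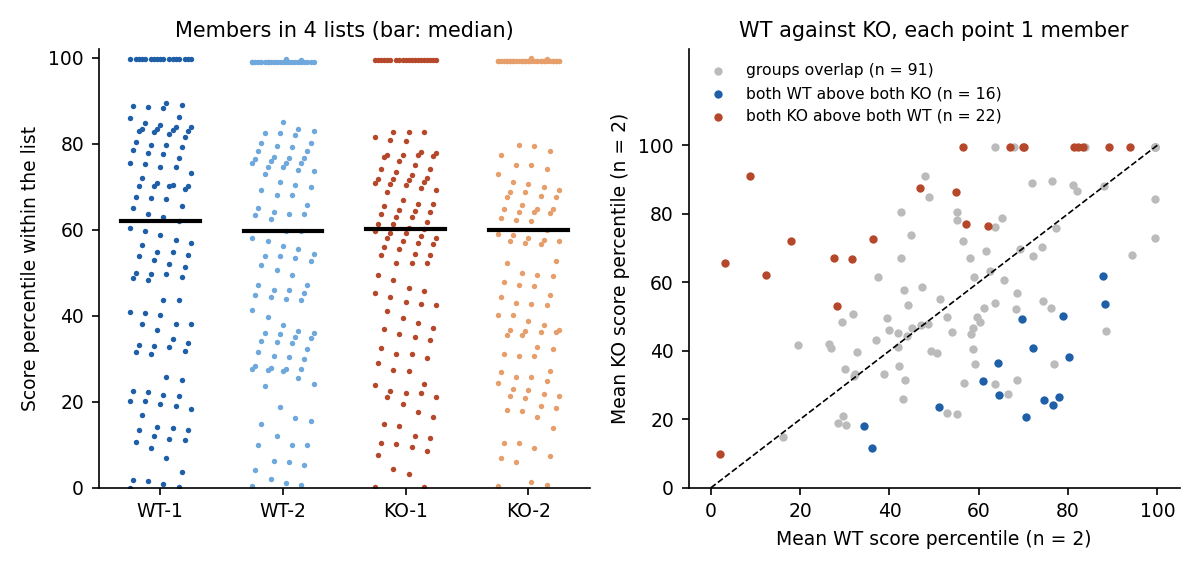
Left, score percentile within the list for the 129 members with a peak in all 4 lists, with the median as a bar. Right, mean KO against mean WT percentile (n = 2 each), coloured by whether the 2 groups overlap. The medians are 62.0, 59.7, 60.1 and 59.9, and the 16 and 22 members whose groups are apart lie on either side of the dashed line of equality.

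The percentile of a single member varied strongly between mice of the same genotype. Among the 129 members, the median gap between WT-1 and WT-2 was 26.0 and that between KO-1 and KO-2 was 21.5, and single WT and KO lists differed by medians of 22.0 to 23.3 over their 4 pairs. Across these members the Spearman correlation was 0.11 between the WT lists and 0.47 between the KO lists, against 0.37 and 0.64 across 1084 stop codon regions, a description over regions that share libraries. Gaps between mice of different genotype were thus of about the size of gaps between mice of the same genotype.

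Both WT percentiles were above both KO percentiles in 16 of the 129 members (12.4%), against 9.35% of all 2203 regions in 4 lists. Both KO percentiles were above both WT percentiles in 22 (17.1%), against 23.6% of all regions. With tied scores at the limit given their middle rank, the counts were 23 (17.8%, against 24% of all regions) and 18 (14%, against 18.9%). Without members that had a score at the limit they were 13 and 10, where the share over all regions was not computed. Which direction held more members thus depended on the treatment of ties. The remaining 91 members overlapped between the groups.

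The largest gaps with WT above KO are given as a description, since these values chose the members. Mid1, a microtubule-bound ubiquitin ligase, had percentiles of 83.2 and 70.0 in WT and 22.5 and 25.7 in KO. Tent4a, a noncanonical poly(A) polymerase, had 77.6 and 78.3 in WT and 14.4 and 38.9 in KO. Rptor, the scaffold of mTORC1, had 79.6 and 49.5 in WT and 22.0 and 32.2 in KO. Peak widths varied too, for example in Rptor with 758 and 803 bp in WT and 396 and 381 bp in KO, and in Mid1 with 1084 and 336 bp in WT and 525 and 768 bp in KO. The same direction was seen for Cdc42bpg, a kinase downstream of Cdc42, for Pofut1, which adds fucose to Notch receptors, for Ccdc6, and for Fam160b2 and B230219D22Rik.

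In the other direction the widest gap was in Pigk, the catalytic subunit of the GPI transamidase, with 13.5 and 4.09 in WT and 82.9 and 99.3 in KO. Arid1b, a subunit of the BAF chromatin remodelling complex, had 0.812 and 23.7 in WT and 60.5 and 63.9 in KO. Nupr1, a small nuclear protein of the stress response, had 36.8 and 35.9 in WT and 80.8 and 64.2 in KO, at 180 nt from its stop codon. Peak1, a pseudokinase of the cytoskeleton, had 0.195 and 6.31 in WT and 71.5 and 59.9 in KO in its member at 975 nt, while its member at 3013 nt was at the score limit in all lists. At the limit a difference between the genotypes could not be seen. Osbpl3, an oxysterol-binding protein relative, Antxr1, an anthrax toxin receptor, Bbx and Gm38394 were the others of the 8.

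Peak width and position inside the members were close between the genotypes. The median width of the 129 members was 670 and 620 bp in WT and 657 and 776 bp in KO, so that KO-1 lay between the WT lists. KO minus WT was 71.5 bp (exact permutation test, p = 0.667), and without KO-2 it was -42 bp. The median distance of the peak midpoints from the stop codon was 1278 and 1220.5 nt in WT and 1226 and 1225 nt in KO (KO minus WT -23.8 nt, exact permutation test, p = 1), and for GGAC in the window KO minus WT was -0.25 percentage points (exact permutation test, p = 1). The tests of presence and its contrasts, score percentile, width, distance and the GGAC comparisons, 9 in all, were adjusted together, and every adjusted p was 1. The 24 comparisons between kinds were adjusted apart from these. There GGAC against internal coding regions had an adjusted p of 0.143 (exact sign-flip test).

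Of the 344 members, 6 members reached the score limit in each of the 4 lists, and these were in Ddx6, Frmd4a, Otulinl, Peak1, Treml2 and Hist1h2bc. Ddx6, the DEAD-box helicase of P-bodies that joins translational repression to decapping, had the longest stretch shared by all lists among them, 1332 bp, centred 907 nt after its stop codon in a 3′-UTR of 4250 nt. Otulinl, a catalytically inactive relative of the deubiquitinase OTULIN, had peaks of 656 and 675 bp in WT and 687 and 687 bp in KO. Treml2, an immunoglobulin-like receptor of the TREM family, had peaks of 1231 and 477 bp in WT and 388 and 914 bp in KO, so its width differed between lists at an equal score. Hist1h2bc, a histone H2B gene, held the shortest of these regions, 313 bp with the same edges in each list and without GGAC.

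Asxl2, a chromatin regulator that partners BAP1, followed with percentiles of 88.6 and 99.1 in WT and 99.4 and 99.3 in KO. Fam168a, Stk38l, a kinase related to the Hippo pathway, Itga6, Ptprj and Arhgap17 completed the 12 members with the highest lowest percentile. Ptprj, the receptor tyrosine phosphatase CD148, had the longest shared stretch of all members, 1929 bp, with percentiles of 76.8 and 99.1 in WT and 77.1 and 99.3 in KO. Itga6, the laminin-binding integrin subunit alpha 6, had 79.3 and 99.1 in WT and 99.4 and 99.3 in KO although its 4 widest peaks shared no base, as happened for 28 of the 344 members.

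Gene groups defined by name were read against the 4.6% of all 7051 genes with a peak that held a member. None of 47 NF-κB and Toll-like receptor genes with a peak held one. A recurrent stop codon region was present in 22 of the 47, and in 1732 of all 7051 genes. The MAP kinase cascade had 1 of 51 (Braf), cytokine receptors and JAK-STAT 1 of 39, and lysosome and autophagy genes 1 of 35. At a share of 4.6% few members are due in groups of this size, so these low counts are not read as a depletion. Transcription factors of the macrophage had 8 of 74 (10.8%), surface receptors 5 of 50 (10.0%), and genes of mRNA decay, silencing and m6A 4 of 56 (7.14%). These shares are descriptions of lists chosen with earlier results known.

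Among the transcription factors, Foxo3 held a member at 586 nt that was missing from WT-1 and had percentiles of 99.1 in the other WT list and 80.6 and 31.0 in KO, and another at 3348 nt with 16.9 and 43.7 in WT and 0.141 and 36.8 in KO. Its relative Foxo1 had 2.22 and 29.7 in WT, 14.6 in KO-1 and no peak in KO-2. Rxra, the common partner of nuclear receptors, held members at 1124 and 2701 nt, both without a peak in KO-2. Mitf, which drives lysosomal and osteoclast genes, had 81.8 and 80.3 in WT and 70.9 in KO-2, with no peak in KO-1. Elk3, an ETS factor, had 86.9 and 66.3 in WT and 53.8 in KO-2, and Nfatc2, a calcium-dependent factor, had 74.2 and 26.1 in WT and 59.6 in KO-1. Foxp1, a forkhead repressor, was low in all lists, between 1.88 and 10.4, and Tcf4 had 63.7 and 29.9 in WT and 76.0 and 99.3 in KO. Among these 8 genes only Tcf4, Foxp1 and Foxo3, the last at 3348 nt, held a member with a peak in all 4 lists. Of these members, those of Tcf4 and Foxp1 had both KO percentiles above both WT percentiles. The same held for 23.6% of all 2203 regions in 4 lists.

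Surface receptors gave mixed values. Cd84, a SLAM family receptor, was at the score limit in every list but WT-2, where it had no peak. Cd86, the costimulatory ligand of T cells, had 67.2 and 35 in WT and 28.9 and 18.2 in KO, so the WT values were the higher ones. Cx3cr1, the fractalkine receptor, had 22.5 and 34.2 in WT and 69.7 and 36.1 in KO, with the KO values higher. Cd300lf, an inhibitory receptor, had 9.64 in WT-1, no peak in WT-2, and 46.4 and 34.2 in KO.

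In mRNA decay and silencing, Ddx6 was joined by Upf1, the helicase of nonsense-mediated decay, which had 22.4 in WT-2, no peak in WT-1, and 53.5 and 72.4 in KO. Ago4, an Argonaute protein of microRNA silencing, had 31.8 and 0.463 in WT and 8.65 and 20.8 in KO. No gene of the m6A machinery was among the 4. In the remaining groups, Ptpn11, the phosphatase SHP2, had 3.67 and 99.1 in WT and 52.3 and 58.2 in KO, a case where the WT mice enclosed the KO mice, and Ctso, the protease cathepsin O, had 27.8 and 99.1 in WT and 78.4 in KO-2.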

How the data were processed

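MeRIP-Seq of 2 WT and 2 KO mice was deposited as 1 list of peaks per mouse. The authors' lists give each peak's position on mm10, its strand and a score, with the unit and the caller's settings not given in the sources used here; the peak names carry the name of MACS. The submitters' processing notes name cutadapt 1.9.3 and HISAT2 2.0.4, and the library kit keeps strand. No reads were given, so depth is unknown. Peaks were merged and assigned with GENCODE M21 (21951 coding genes), and sequence was read from GRCm38 (mm10). Python 3.11.15, scipy 1.17.1 and pysam 0.24.0 were used. Tests were exact permutation tests over lists and exact sign-flip tests. A p-value is the share of relabellings or sign flips of the lists that give a difference at least as large in size. The scripts were tested on simulated data. Members and gene lists were chosen with earlier results of these data known. Members were named by list membership, lowest percentile (12), distance (8), at least 3 regions in a gene, gap between genotypes (8 each way) and nearness to the stop codon limit (3 on each side). The labels do not say that equal numbers pair mice; WT-1 minus WT-2 and KO-1 minus KO-2 percentiles had a Spearman correlation of 0.0035 over 2203 regions in 4 lists. Some items withheld for evaluation are not reported here.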

Additional observations from a re-analysis of the deposited data

How the results depend on the processing

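No alternative could bring a p-value below 0.05 with 4 lists, so directions and counts are what can move. Of 136 values under alternatives for 14 results, 93 kept their direction or stayed within 1.5 times. Except for middle ranks, no share over all regions was computed under the alternatives. Counts of members that lacked a list or had the genotypes apart are therefore not read there as a property of the members.

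With the 50% of peaks of highest score there were 93 members, 36 lacking a WT and 30 lacking a KO list, 1 with both WT percentiles above both KO and 10 the other way. The median percentile difference was then 34.2, the distance difference 2 nt, GGAC minus stop codon regions 1.65 points, and the contrast of presence with stop codon regions -3.29 points. The transcript with the longest CDS turned the percentile difference to 0.42. GGACT in place of GGAC gave 1.73 points against stop codon and 3.84 against internal coding regions. For KO minus WT in GGAC, the central 100 nt gave 3.87 points and merging within 100 bp 0.53 points. Without members at the score limit, 10 had both KO percentiles above both WT and 13 the reverse. The contrast of presence with internal coding regions was -9.42 points with the 50% of peaks of highest score, and GGAC minus internal coding regions -2.52 points.
The replicate block, comparing WT and KO lists of the same number, left all differences as they were (presence 6.25 points, exact p = 1), since it changes the test only. In both pairs, 31 members had WT above KO and 29 the reverse, with no share over all regions computed. The numbers are shared labels, and the deviations of equal numbers did not go together.

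Leaving out 1 list at a time and requiring the other 3, there were 178 to 229 members, 51 to 93 with every WT percentile above every KO and 44 to 70 the reverse, distance differences of -26.3 to 2 nt, width differences of -42 to 180 bp (the lowest without KO-2, 180 without KO-1), GGAC differences of -3.42 to 1.99 points from stop codon regions, -7.76 to -1.89 points from internal coding regions and -3.60 to 0.66 points for KO minus WT; the upper ends of distance and GGAC came without WT-2. That requirement fixes presence, so 2 or 3 of the other 3 lists were required instead, an alternative chosen after seeing the data. Presence then differed by -6.75 to 17.2 points, with -5.73 without KO-1 and -6.75 without KO-2, its contrast with stop codon regions by -8.60 to 13.4 (-6.50 without KO-2), its contrast with internal coding regions by -16.1 to -4.92, and 187 to 296 members lacked a WT list (258 and 296 without KO-1 and KO-2, 233 without WT-1) and 164 to 240 a KO list (193 without KO-2, 240 and 233 without WT-1 and WT-2). Middle ranks for ties were also chosen after seeing the data. The cause of these changes was not tested, apart from there being fewer peaks or lists. Depth is unknown, and 54 of the 129 members in 4 lists had at least 1 score at the limit, where ranks are tied.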
